A study of Mus musculus with 9 samples.

Results

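The 10 genes described here encode the proteins with which an absorptive cell of the small intestine takes up fatty acids and rebuilds triglyceride from them: *Cd36*, *Slc27a4*, *Fabp1*, *Fabp2*, *Acsl5*, *Agpat2*, *Mogat2*, *Dgat1*, *Dgat2* and *Plin2*. They were taken by gene symbol, not by level, from a count table of 48709 mouse genes, and all 10 are among the 15002 genes that had more than 100 reads over the 9 libraries and were tested. The libraries hold messenger RNA from duodenum, where the small intestine begins. The mice were male C57BL/6J, 10 weeks of age, and tissue was collected 6 h after a dose by mouth in sunflower oil. The labels give calcitriol (1,25D3, the hormonal form of vitamin D) with ZK, calcitriol alone, or vehicle, each with numbers 1, 2 and 3. ZK is ZK168281, a carboxylic ester analog of calcitriol that antagonizes the vitamin D receptor, and the dose behind these libraries is not given in the sources used here. Mice were fed ad libitum, no group carries a genetic change, and whole tissue was extracted, so fewer cells of a type and less RNA per cell cannot be told apart.

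The treatment on the label does not match the transcript that calcitriol is best known to induce. *Cyp24a1*, which encodes the enzyme that degrades calcitriol, was at 6425 to 7633 TMM CPM (counts scaled to library size after trimmed-mean normalization, the unit of level used below) in the 3 libraries with number 2, whatever their treatment label, at 2.47 to 9.13 in those with number 3 and at 2.50 to 6.14 in those with number 1. *Trpv6* and *S100g*, both of calcium absorption, were also highest in number 2. *Trpv6* was at 245 to 314 TMM CPM in number 2, 0.244 to 1.06 in number 3 and 0 to 0.422 in number 1. *S100g* was at 2142 to 2821, 230 to 862 and 213 to 229 in the same order. The columns of the table are headed only by digits, which match a digit in each sample's description. Headers 4 to 6 are thus number 2, 7 to 9 number 3 and 1 to 3 number 1. Nothing beyond these digits ties a column to a sample. Whether the headers run by replicate, as the descriptions have it, or by treatment was not tested. What a difference between numbers stands for is therefore not settled. Libraries are called by their labels, every direction between treatments rests on labels that *Cyp24a1* contradicts, and the genes are described both by number and by treatment. The number is only a replicate number in the labels and is not said to mark a litter, day or batch, and p-values between numbers measure the spread between these libraries. The library labelled calcitriol 3 stood apart from the other 2 of its number: its gene counts differed from those of the number 1 libraries by a mean chi-square of 1.95 to 5.33 per gene, against 112 to 118 from the other 2 of number 3. The library labelled calcitriol 2 likewise lay at 95.9 to 103 from the other 2 of number 2, which lay at 3.67 from each other. Total counts were 22561400 to 41207455 per library, and each of the 10 genes had at least 1107 reads in every library.

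Dietary triglyceride is split in the gut lumen into fatty acids and monoacylglycerol, which enter the enterocyte, the absorptive cell of the villus. Fatty acids are carried in the cytosol by small binding proteins, joined to coenzyme A, and esterified again at the endoplasmic reticulum, mainly onto monoacylglycerol and to a lesser part onto glycerol phosphate. The triglyceride leaves the cell in chylomicrons or is held for a time in cytosolic lipid droplets. The duodenum and jejunum are the main sites of this work.

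In the mouse assembly GRCm38, *Cd36* (ENSMUSG00000002944) lies on chromosome 5 from 17781690 to 17888801, *Fabp1* (ENSMUSG00000054422) on chromosome 6 from 71199827 to 71205023 and *Slc27a4* (ENSMUSG00000059316) on chromosome 2 from 29802634 to 29817522. *Mogat2* (ENSMUSG00000052396) and *Dgat2* (ENSMUSG00000030747) are neighbours on chromosome 7, from 99219084 to 99238619 and from 99153658 to 99182719, with 36.4 kb and no other protein-coding gene between them. *Dgat1* (ENSMUSG00000022555) lies on chromosome 15 from 76502015 to 76511953 and *Plin2* (ENSMUSG00000028494) on chromosome 4 from 86648386 to 86670060. *Fabp2* (ENSMUSG00000023057) lies on chromosome 3 from 122895072 to 122899506, *Acsl5* (ENSMUSG00000024981) on chromosome 19 from 55251938 to 55297720 and *Agpat2* (ENSMUSG00000026922) on chromosome 2 from 26593057 to 26604417. Each of the 10 is a protein-coding gene in this annotation. Exons of *Acsl5* share 404 bases with *Zdhhc6*, those of *Agpat2* 64 bases with *Egfl7* and those of *Mogat2* 55 bases with *Gm45012*, each on the opposite strand, and whether counting used strand is not given in the sources used here, and reads of the partners cannot be told apart from theirs there.

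The promoters below are those of the 3 genes whose level differed most between libraries, *Cd36*, *Slc27a4* and *Fabp1*, and of the gene whose level differed least, *Plin2*. Each is the 250 bases before the RefSeq start site in GRCm38.p6, 5′ to 3′ on the gene's strand. For *Cd36*, *Fabp1* and *Plin2* this start lies inside the span of the gene given above. Capitals mark the half-site AGGTCA of nuclear receptors and the TATA box TATAAA, each read on either strand.
*Cd36* (chr5:17835897-17836146, minus strand): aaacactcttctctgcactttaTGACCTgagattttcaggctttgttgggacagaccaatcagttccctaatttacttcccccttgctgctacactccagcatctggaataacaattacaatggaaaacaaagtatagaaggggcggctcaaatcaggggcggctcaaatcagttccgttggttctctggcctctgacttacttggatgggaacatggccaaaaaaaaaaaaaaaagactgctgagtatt
*Slc27a4* (chr2:29802384-29802633, plus strand): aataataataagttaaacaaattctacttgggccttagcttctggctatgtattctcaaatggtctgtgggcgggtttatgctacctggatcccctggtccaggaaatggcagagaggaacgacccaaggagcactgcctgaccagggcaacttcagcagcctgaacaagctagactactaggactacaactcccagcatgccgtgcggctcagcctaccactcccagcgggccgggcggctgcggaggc
*Fabp1* (chr6:71199629-71199878, plus strand): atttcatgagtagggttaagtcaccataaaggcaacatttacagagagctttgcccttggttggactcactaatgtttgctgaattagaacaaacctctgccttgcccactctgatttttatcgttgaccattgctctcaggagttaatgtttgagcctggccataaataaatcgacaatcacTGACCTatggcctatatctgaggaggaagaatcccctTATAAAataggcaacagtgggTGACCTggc
*Plin2* (chr4:86670060-86670309, minus strand): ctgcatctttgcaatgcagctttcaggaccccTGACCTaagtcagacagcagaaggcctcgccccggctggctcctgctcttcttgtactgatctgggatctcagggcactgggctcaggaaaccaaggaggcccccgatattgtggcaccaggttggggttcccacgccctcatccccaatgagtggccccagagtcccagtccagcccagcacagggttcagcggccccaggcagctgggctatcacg

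*Fabp1* held 2 half-sites, starting 67 and 9 bases before the start site, and a TATA box on the gene's strand 30 bases before it. *Cd36* and *Plin2* held 1 half-site each, 228 and 218 bases before the start, and *Slc27a4* held neither motif. Over the 32851 mouse promoters of the RefSeq table, 14.0% held the half-site and 12.4% the TATA box, each on either strand. Of the 10 genes 7 had an entry, and *Fabp2*, *Acsl5* and *Agpat2* held neither motif. None of the 7 held the half-site as a direct repeat spaced by 1 base (in 0.0335% of promoters) or by 3 bases (in 0.00609%). These are matches of letters, and a missing match says only that the letters are not in this window.

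Per kilobase of exon, the 2 cytosolic binding proteins were the most abundant transcripts of the 10. The median level over the 9 libraries was 4607 RPKM (TMM CPM per kilobase) for *Fabp2* and 3616 for *Fabp1*, followed by 536 for *Acsl5*, 387 for *Mogat2*, 192 for *Slc27a4*, 182 for *Dgat1*, 176 for *Dgat2* and 139 for *Agpat2*. *Plin2* at 22.5 and *Cd36* at 11.8 RPKM were the lowest. The libraries overlapped between *Fabp2* (3788 to 5742 RPKM) and *Fabp1* (3186 to 6560), and among *Slc27a4* (129 to 317), *Dgat1* (177 to 316), *Dgat2* (145 to 232) and *Agpat2* (84.1 to 166), so the order within each of these sets differed from library to library. *Cd36* (8.78 to 28.6) also reached into the range of *Plin2* (20.4 to 23.7).

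The spread over libraries differed between the genes. The highest library was 3.25 times the lowest for *Cd36*, 2.46 times for *Slc27a4* and 2.06 times for *Fabp1*, and of the 8000 genes with a mean of at least 10 TMM CPM, 96.3%, 93.0% and 87.8% had a smaller ratio. At the other end it was 1.16 times for *Plin2*, where 4.18% of genes had a smaller ratio. In the plot of the 10 genes by library the libraries fall apart by number, and within number 3 that labelled calcitriol 3 lies apart from the other 2.

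**Figure D1:**
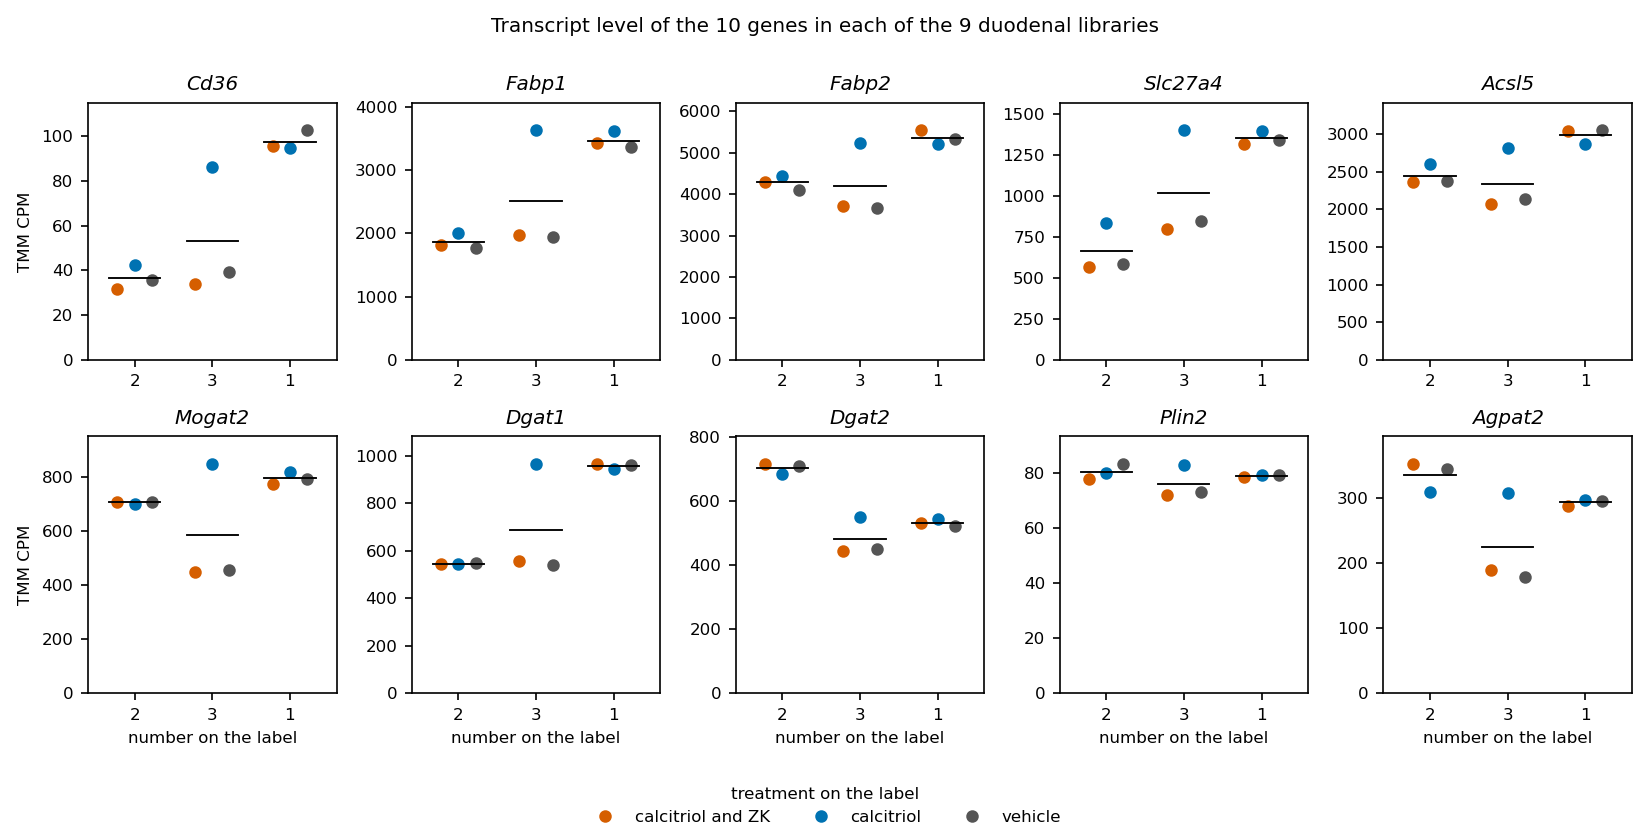
Level (TMM CPM, axes start at 0) of each of the 10 genes in each library, by the number on the label (2, 3, 1) and coloured by the treatment on the label, with 1 point per library and a bar at the mean of each number. *Cd36*, *Fabp1*, *Slc27a4* and *Dgat1* are low in all 3 libraries of number 2 and in 2 of number 3, *Dgat2* is highest in number 2, and *Plin2* stays between 71.7 and 83.1.

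Between numbers 2 and 1, genes of fatty acid entry and binding and 1 of the 2 enzymes that finish triglyceride were lower in number 2, and none of the 10 was called higher. The 4 calls were *Cd36*, *Slc27a4*, *Fabp1* and *Dgat1* (4 of 10 lower, with 8.25% of all genes tested called lower and 20.4% called in either direction). A call needed a Benjamini-Hochberg adjusted p under 0.05 by edgeR's quasi-likelihood test over all 15002 genes and a log2 fold change beyond 0.58 in size. The median log2 fold change of the 10 was -0.305, and that of all genes tested was 0.03.

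*Cd36*, a membrane receptor that binds long-chain fatty acids, was at 31.5, 42.25 and 35.5 TMM CPM in the number 2 libraries (calcitriol and ZK, calcitriol, vehicle), and at 95.3, 94.6 and 102.5 in those of number 1. In number 3 the same labels gave 33.7, 86.1 and 39.1. All number 2 libraries were below all number 1 libraries, 2.68-fold by the fit (log2 fold change -1.42, standard error 0.30, edgeR adjusted p = 0.0050). Of the number 3 libraries, only that labelled calcitriol 3 came near number 1.

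*Slc27a4* encodes FATP4, a fatty acid transport protein that also joins long fatty acids to coenzyme A. It was at 568, 831 and 583 TMM CPM in the number 2 libraries (calcitriol and ZK, calcitriol, vehicle), at 796, 1398 and 848 in those of number 3 in the same order, and at 1315, 1395 and 1339 in those of number 1. Number 2 was 2.04-fold lower than number 1 (log2 fold change -1.03, standard error 0.23, edgeR adjusted p = 0.0063) without overlap, and the library labelled calcitriol 2 was the highest of its number.

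*Fabp1* encodes the liver-type fatty acid binding protein, which the intestine also makes, and *Fabp2* the intestinal type. *Fabp1* was at 1823, 2000 and 1762 TMM CPM in the number 2 libraries (calcitriol and ZK, calcitriol, vehicle), at 1969, 3628 and 1941 in those of number 3, and at 3430, 3610 and 3357 in those of number 1. It was 1.86-fold lower in number 2 than in number 1 (log2 fold change -0.90, standard error 0.23, edgeR adjusted p = 0.013). This call was lost without the library labelled vehicle 2 (log2 fold change -0.86, adjusted p = 0.052, within 2.3e-07 to 0.052 over the alternatives). *Fabp2* was less spread: 4304, 4446 and 4112 TMM CPM in number 2, 3726, 5243 and 3655 in number 3, and 5541, 5207 and 5338 in number 1. Its libraries of number 2 were all below those of number 1, but the difference was not called (log2 fold change -0.32, 95% interval -0.69 to 0.04, edgeR adjusted p = 0.15).

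The level of *Fabp2* relative to *Fabp1*, per length and within a library, was therefore not fixed. It was 1.35, 1.27 and 1.34 in the libraries labelled calcitriol and ZK 2, calcitriol 2 and vehicle 2, 1.08, 0.828 and 1.08 in those of number 3, and 0.926, 0.827 and 0.911 in those of number 1. *Fabp2* was thus the more abundant of the pair in 5 libraries and *Fabp1* in 4. These ratios do not depend on the scaling between libraries.

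*Acsl5*, a long-chain acyl-CoA synthetase abundant in the intestine, was at 2360, 2606 and 2373 TMM CPM in the number 2 libraries (calcitriol and ZK, calcitriol, vehicle). It was at 2067, 2808 and 2129 in those of number 3 and at 3038, 2871 and 3047 in those of number 1. Number 2 lay below number 1 in every library, and the difference was not called (log2 fold change -0.29, 95% interval -0.61 to 0.04, edgeR adjusted p = 0.15).

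Among the enzymes that build triglyceride, the pair that carries out the last step had fold changes of opposite sign between numbers 2 and 1. *Dgat1* and *Dgat2* both join a fatty acid to diacylglycerol and belong to unrelated protein families. *Dgat1* was at 543, 544 and 548 TMM CPM in the number 2 libraries (calcitriol and ZK, calcitriol, vehicle), at 555, 963 and 541 in those of number 3, and at 964.5, 945 and 960 in those of number 1. It was 1.76-fold lower in number 2 than in number 1 (log2 fold change -0.81, standard error 0.20, edgeR adjusted p = 0.011). *Dgat2* was at 716, 685 and 710 TMM CPM in number 2, 446, 550 and 451 in number 3, and 532, 543 and 524 in number 1. Its number 2 libraries were above all 6 others. Against number 1 its adjusted p was 0.014 with a log2 fold change of 0.40 (standard error 0.10), below the minimum for a call.

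The ratio of *Dgat2* to *Dgat1*, per length and within a library, was 1.31, 1.25 and 1.28 in the libraries labelled calcitriol and ZK 2, calcitriol 2 and vehicle 2. It was 0.796, 0.566 and 0.826 in those of number 3 and 0.547, 0.569 and 0.541 in those of number 1. *Dgat2* was the more abundant of the pair only in the 3 libraries of number 2, and the library labelled calcitriol 3 fell within the range of number 1.

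*Mogat2* encodes the intestinal monoacylglycerol acyltransferase, the first step of resynthesis, and *Agpat2* the acyltransferase that makes phosphatidic acid on the glycerol phosphate route. *Mogat2* was at 710, 702 and 710 TMM CPM in the number 2 libraries (calcitriol and ZK, calcitriol, vehicle), at 452, 850 and 456 in those of number 3, and at 777, 822 and 795 in those of number 1. Number 2 was below number 1 in every library, but the difference was not called (log2 fold change -0.17, 95% interval -0.66 to 0.31, edgeR adjusted p = 0.55), and its sign turned without TMM scaling (0.02). The SD of *Mogat2* was 4.66 TMM CPM in number 2 and 22.7 in number 1, against 229 in number 3, which also enters this interval. *Agpat2* was at 353, 310 and 344 TMM CPM in number 2, 190, 308 and 179 in number 3, and 288.5, 297 and 296 in number 1. Its number 2 libraries were all above those of number 1 and the difference was not called (log2 fold change 0.19, 95% interval -0.21 to 0.60, edgeR adjusted p = 0.42). Both genes were lowest in the libraries labelled calcitriol and ZK 3 and vehicle 3.

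*Plin2* encodes the protein that coats cytosolic lipid droplets. It was at 77.8, 79.8 and 83.1 TMM CPM in the number 2 libraries (calcitriol and ZK, calcitriol, vehicle), at 71.7, 82.6 and 73.0 in those of number 3, and at 78.5, 79.1 and 79.0 in those of number 1. It was the only gene of the 10 whose number 2 and number 1 libraries overlapped (log2 fold change 0.02, 95% interval -0.13 to 0.18, edgeR adjusted p = 0.81). In all, 7 of the 10 were below number 1 in every library of number 2 and 2 were above, where 30.0% and 31.8% of all genes tested did so.

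**Figure D2:**
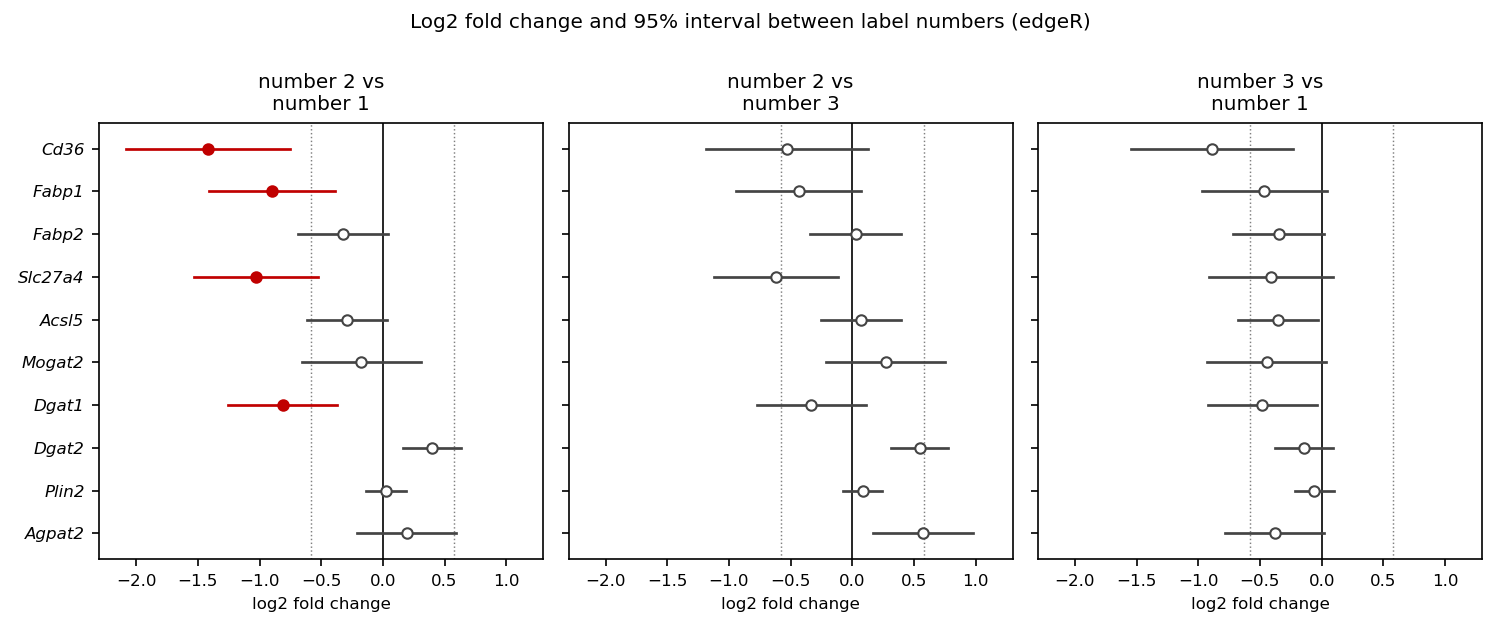
Log2 fold change (point) and 95% interval (line) of the 10 genes between numbers 2 and 1, 2 and 3, and 3 and 1 by edgeR over 9 libraries. Filled red points are calls, and dotted lines mark the minimum of 0.58. The 4 calls are *Cd36*, *Fabp1*, *Slc27a4* and *Dgat1* in number 2 against number 1, all to the left of 0.

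Against number 3, no gene of the 10 was called in number 2 (11.3% of all genes tested were, 6.81% higher and 4.53% lower). An unadjusted p under 0.05 was reached by 3 of the 10 and by 35.5% of all genes tested. *Dgat2* (log2 fold change 0.55, standard error 0.11, edgeR adjusted p = 0.0046) and *Agpat2* (0.57, standard error 0.18, adjusted p = 0.045) passed the adjusted p and missed the minimum fold change. The number 2 libraries of both were above all those of number 3, as 18.9% of genes were, and none of the 10 was below throughout, as 17.9% were. *Slc27a4* had a log2 fold change of -0.62 (standard error 0.22) and an adjusted p of 0.075. The result turned on single libraries. Without that labelled calcitriol 3, 3 of the 10 were called and higher in number 2 (*Agpat2* at a log2 fold change of 0.86, *Dgat2* at 0.65 and *Mogat2* at 0.64), with 9.09% of all genes called higher. Without that labelled calcitriol 2 or calcitriol and ZK 3, *Slc27a4* was called and lower (-0.82 and -0.76), with 5.34% and 4.51% of all genes called lower. With the treatment label as an additive term (the replicate block), *Slc27a4* (-0.60, edgeR adjusted p = 0.029) and *Agpat2* (0.60, adjusted p = 0.048) were called, among 1700 genes called in all.

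Between numbers 3 and 1, edgeR called no gene at all (0%), with 3940 genes (26.3%) at an unadjusted p under 0.05. There limma voom also called 0 while DESeq2 called 398. Of the 10 genes 3 had an unadjusted p under 0.05, *Cd36*, *Acsl5* and *Dgat1*, and *Cd36* and *Acsl5* were below number 1 in every library of number 3, as 8.61% of genes were, while none was above throughout, as 9.75% were. The library labelled calcitriol 3 decided this comparison. Without it 2850 genes were called (19.2%, 11.4% higher and 7.71% lower), and 6 of the 10 were called and lower in number 3: *Cd36* (log2 fold change -1.42), *Fabp1* (-0.83), *Mogat2* (-0.81), *Dgat1* (-0.80), *Slc27a4* (-0.72) and *Agpat2* (-0.67). In that library each of the 10 was at 0.883 to 1.07 times its mean in number 1 and at up to 2.36 times its mean in the other 2 libraries of number 3, with *Cd36* the highest and *Plin2* the lowest in the second.

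Across the 9 libraries the genes fell into patterns that follow these values. Given as a description, with the libraries and their scaling shared by all points, Pearson's r of log2 TMM CPM was 0.922 to 0.990 among *Cd36*, *Fabp1*, *Slc27a4* and *Dgat1*, and 0.982 between *Fabp2* and *Acsl5*. The first 4 are the genes called between numbers 2 and 1. *Fabp2* and *Acsl5* also ran with them, from 0.761 (*Acsl5* with *Slc27a4*) to 0.916 (*Fabp2* with *Dgat1*). *Dgat2* ran at -0.490 to -0.267 with the first 4 and at 0.860 with *Agpat2*. *Agpat2* was at 0.876 with *Plin2* and 0.866 with *Mogat2*. Of the 7987 other genes with a mean of at least 10 TMM CPM, those most like *Cd36* over the 9 libraries were *Mep1b*, a brush border protease (r = 0.998), and *Muc2*, the goblet cell mucin (0.997). Those most like *Slc27a4* were *Slc7a8*, an amino acid transporter (0.998), and *Pkm*, a pyruvate kinase (0.998), and those most like *Fabp1* were *Smim24* and *Prelid1* (0.998 each).

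Markers of several cell types moved with the number. Between numbers 2 and 1, 12.2% of all genes tested were called higher in number 2 and 8.25% lower. The 15 enterocyte markers (such as *Sis*, *Anpep* and *Alpi*, enzymes of the brush border) summed to 21360 to 26530 TMM CPM in number 2 and 36060 to 36580 in number 1, with 8 of 15 called and lower and a median log2 fold change of -0.60. In number 3 they summed to 25500, 35980 and 26070 in the libraries labelled calcitriol and ZK 3, calcitriol 3 and vehicle 3. The sum of the 10 genes was 11490, 12250 and 11260 in number 2, 10310, 15920 and 10310 in number 3, and 16060, 15860 and 15840 in number 1. The 5 erythroid markers, the globin genes and *Alas2*, summed to 44.4 to 47.8 in number 2 and 139 to 147 in number 1 (3 of 5 called and lower), and to 21.8, 138 and 21.5 in number 3. The 10 lymphoid markers summed to 3019 to 3497 in number 2, 4595 to 5166 in number 3 and 5208 to 5364 in number 1, with 3 of 10 called higher and 2 lower in number 2 than in number 1. The 12 crypt and proliferation markers summed to 369 to 397 in number 2, 714, 485 and 740 in number 3, and 487 to 500 in number 1.

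Markers of the pancreas, of gastric or Brunner glands and of fibroblasts were higher in number 2 than in number 1. Of these lists 18 of 18, 8 of 9 and 7 of 8 genes were called higher. The 18 pancreatic acinar markers summed to 47160, 10230 and 49140 TMM CPM in the number 2 libraries (calcitriol and ZK, calcitriol, vehicle), to 4385, 135 and 4464 in those of number 3, and to 127 to 141 in those of number 1, where at most 2 of the 18 were at 0. The 9 gastric or Brunner gland markers summed to 6802 to 8344 in number 2, 10.9 to 130 in number 3 and 8.61 to 9.81 in number 1. The 8 fibroblast markers summed to 260 to 276, 154 to 309 and 150 to 156. Of the 6 adipocyte markers tested, 4 were called higher and 2 lower, their sum was 248 to 281 in number 2, 452 to 525 in number 3 and 499 to 529 in number 1, and the defining *Adipoq* was at 2.82 to 3.91 TMM CPM in number 2, at most at 0.0252 in number 3 and at 0 in number 1. The part of these tissues and cell types in the levels of the 10 genes was not tested. With the genes of the acinar and gastric lists left out before scaling, an alternative added after seeing the data, 4 of the 10 were again called and lower in number 2 than in number 1. Over all 10 alternatives, with this included, 2754 to 5751 genes were called in that comparison, against 3067 (20.4%) in the main fit. Leaving the acinar and gastric genes out changes the scaling and not the reads of the 10 genes, so it cannot show the part of other tissues in them.

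**Figure D3:**
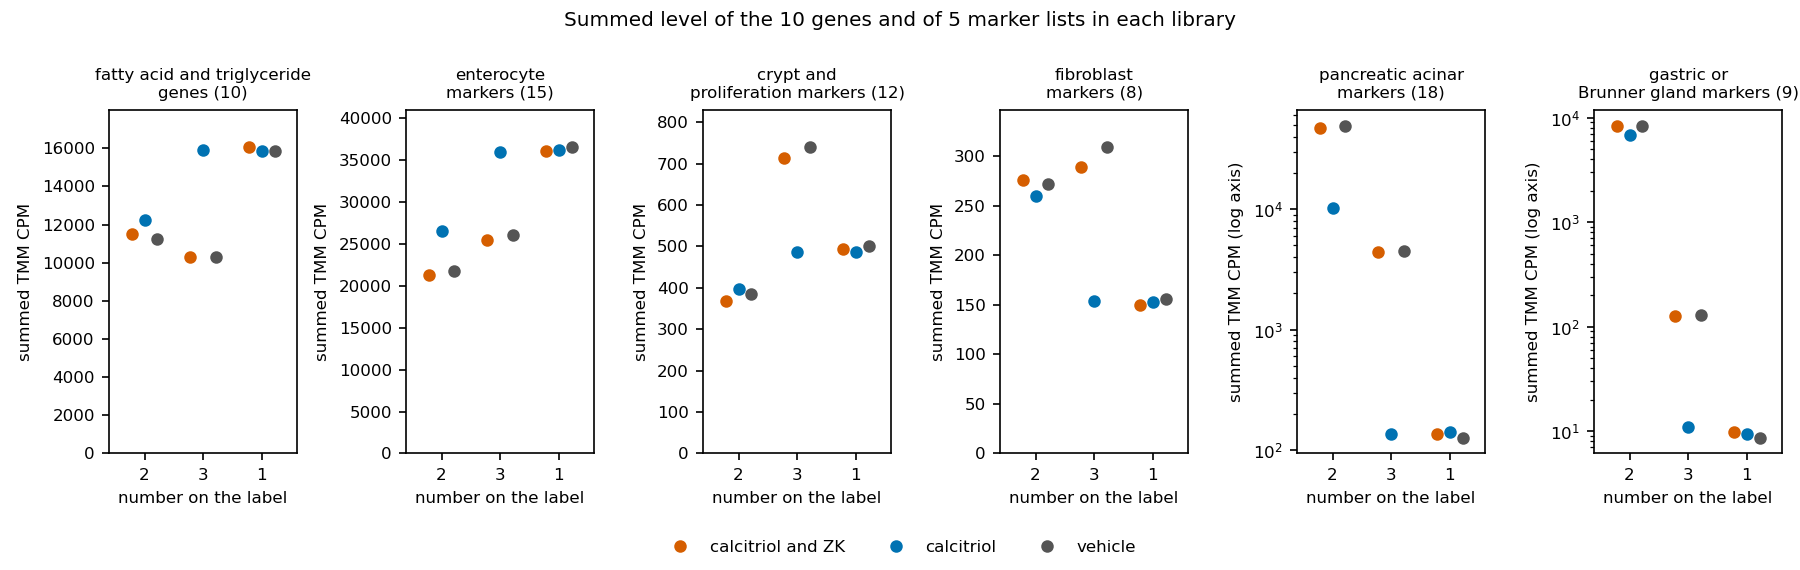
Summed TMM CPM of the 10 genes and of 5 marker lists (number of genes in brackets) in each library, by number and coloured by treatment label. The last 2 panels have log axes. The 10 genes and the enterocyte markers are both lowest in number 2 and in 2 libraries of number 3, where acinar markers are at 4385 to 49140.

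Set against the enterocyte markers, a scale added after seeing the data, the 10 genes did not share a direction. Per 1000 TMM CPM of the summed markers, *Dgat2* was at 25.8 to 33.5 in number 2, 15.3 to 17.5 in number 3 and 14.3 to 15.0 in number 1. *Agpat2* was at 11.7 to 16.5, 6.87 to 8.55 and 8.00 to 8.18, and *Mogat2* at 26.5 to 33.2, 17.5 to 23.6 and 21.5 to 22.7. *Cd36* was at 1.47 to 1.63 in number 2, below the 2.61 to 2.80 of number 1 and overlapping the 1.32 to 2.39 of number 3. In number 2, 6 of the 10 were above number 1 in every library (*Fabp2*, *Acsl5*, *Mogat2*, *Dgat2*, *Plin2* and *Agpat2*) and 4 were below (*Cd36*, *Fabp1*, *Slc27a4* and *Dgat1*). On this scale, whose divisor is lower in number 2, 76.7% of all genes tested were above and 3.99% below. Against number 3, 6 of the 10 were above, 0 below and 4 overlapped, with 32.3% of all genes above and 3.47% below. The markers themselves did not move evenly, with *Sis* at 814 to 1249 TMM CPM in number 2 and 3430 to 3680 in number 1, and *Alpi* at 6549 to 6956 and 7464 to 7542, so this scale depends on the list.

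By treatment label, none of the 10 genes was called in any of the 3 comparisons, and edgeR called no gene in any of them (0% each). At an unadjusted p under 0.05 there were 135 genes for calcitriol against vehicle, 24 for calcitriol and ZK against vehicle and 147 for calcitriol and ZK against calcitriol, none of the 10 among them. DESeq2 and limma voom also called 0 genes in each. The comparisons share the libraries of a label and so are not independent of each other.

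*Cd36* averaged 53.5 ± 36.2 TMM CPM in the libraries labelled calcitriol and ZK, 74.3 ± 28.1 in those labelled calcitriol and 59.0 ± 37.7 in those labelled vehicle (SD, n = 3 each). For calcitriol against vehicle its log2 fold change was 0.33 (95% interval -0.95 to 1.61), and leaving out 1 library gave 0.0734 (without vehicle 2) to 0.99 (without vehicle 1). *Fabp1* averaged 2407 ± 888, 3079 ± 935 and 2353 ± 874 TMM CPM in the same order, and *Dgat1* 687 ± 240, 818 ± 237 and 683 ± 240. The spread within a label was larger than the differences between labels, and each label holds 1 library of each number.

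For calcitriol and ZK against calcitriol, the comparison that sets the combination with the analog beside calcitriol alone at the same time, the log2 fold changes of the 10 ran from -0.48 (*Cd36*, 95% interval -1.76 to 0.81) to -0.07 (*Dgat2*, -0.62 to 0.48), with *Dgat2* at 0.0032 without TMM scaling. That of *Cd36* ran from -1.19 (without calcitriol and ZK 1) to -0.21 (without calcitriol and ZK 2) when 1 library was left out. The intervals allow changes in both directions, so the test does not show that the treatments act alike. The narrowest was that of *Plin2* (log2 fold change -0.08, 95% interval -0.30 to 0.13, edgeR adjusted p = 1.0). *Plin2* was at 77.8, 71.7 and 78.5 TMM CPM under the label calcitriol and ZK, all below the 79.8, 82.6 and 79.1 of those labelled calcitriol, as 1.73% of all genes tested were, and without TMM scaling the difference was 0.0057 on the log2 scale. No other gene of the 10 had libraries of 2 treatment labels without overlap, where 2.66% of all genes were above in this comparison, 1.58% above and 2.38% below for calcitriol against vehicle, and 0.947% above and 0.840% below for calcitriol and ZK against vehicle.

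**Figure D4:**
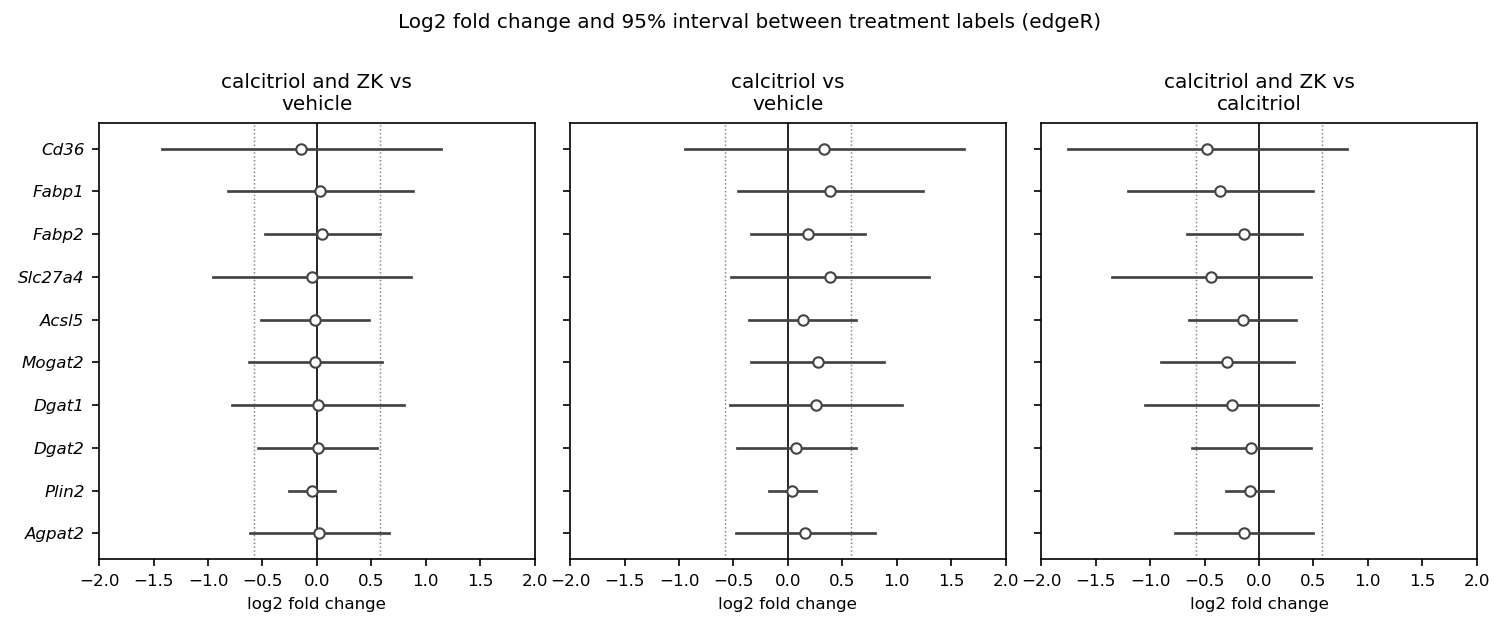
Log2 fold change (open point, not called) and 95% interval (line) of the 10 genes for calcitriol and ZK against vehicle, calcitriol against vehicle, and calcitriol and ZK against calcitriol by edgeR over 9 libraries. Every interval includes 0, and those of *Cd36* are the widest and those of *Plin2* the narrowest.

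Within a number, where libraries differ in treatment label only as far as the labels say, the 30 ratios between treatments (3 for each gene) ran from 0.923 to 1.08 in number 1 and from 0.683 to 1.43 in number 2, and none passed 1.5-fold in either. In number 3 they ran from 0.391 to 2.20, and 12 of 30 passed 1.5-fold, all with the library labelled calcitriol 3 the higher. That library differed from the other 2 of number 3 over all genes (mean chi-square of 112 to 118 per gene). The share of all genes passing 1.5-fold was not computed, so the 12 cannot be set against it. A treatment has 1 library in each number, so these ratios have no replicate check.

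The other genes of the pathway are given by 8 lists of 175 genes, of which 156 were tested. Between numbers 2 and 1, 27 were called higher and 28 lower (35.3%, against 20.4% of all genes), and between numbers 2 and 3, 20 higher and 15 lower (22.4%, against 11.3%). None was called by treatment label or between numbers 3 and 1. Of these genes, *Fabp4*, *Cidec* and *Lipe* are also among the adipocyte markers.

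Other fatty acid uptake and binding proteins split, with 5 of 18 higher and 4 lower in number 2 than in number 1. *Mfsd2a*, a transporter of lysophosphatidylcholine, was at 53.6 to 67.9 TMM CPM in number 2, 17.7 to 19.96 in number 3 and 17.9 to 19.6 in number 1 (log2 fold change against number 1 1.71, standard error 0.10, edgeR adjusted p = 3.0e-06). *Fabp5*, the epidermal-type binding protein, was at 18.4 to 19.8, 7.55 to 8.05 and 7.14 to 8.21 (1.33, adjusted p = 5.0e-06). Of the other acyl-CoA synthetases and thioesterases 5 of 16 were higher and 5 lower. *Acsl6*, a synthetase best known from brain, was at 2.82 to 4.01 in number 2 and 13.5 to 14.8 in number 1, and *Acss1*, a mitochondrial acetyl-CoA synthetase, at 93.9 to 120 and 51.1 to 52.1.

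The other enzymes of triglyceride synthesis held 2 of 18 that were higher and 3 that were lower in number 2 than in number 1. *Mogat1*, a second monoacylglycerol acyltransferase, was at 1.02 to 1.58 TMM CPM in number 2, 0.327 to 0.485 in number 3 and 0.167 to 0.257 in number 1. *Plpp1*, a phosphatidate phosphatase of the cell surface, was at 55.9 to 68.6 in number 2 and 128 to 135 in number 1.

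Of the lipid droplet and triglyceride hydrolysis genes other than *Plin2*, 7 of 21 were higher and 6 lower in number 2 than in number 1. *Abhd5*, the co-activator of adipose triglyceride lipase, was at 87.5 to 99.3 TMM CPM in number 2, 28.5 to 32.9 in number 3 and 29.7 to 33.9 in number 1 (log2 fold change against number 1 1.58, edgeR adjusted p = 2.3e-06). *Aadac*, an esterase of the endoplasmic reticulum, was at 157 to 169 in number 2 and 453 to 493 in number 1 (-1.57, adjusted p = 0.00039). Chylomicron genes were called in 2 of 15: *Apoa4*, an apolipoprotein of chylomicrons, was at 18680 to 19500 in number 2 and 10080 to 10930 in number 1, and *Apob*, their structural protein, at 1521 to 2153 and 2782 to 3009.

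Of the fatty acid oxidation genes 1 of 30 was higher and 4 were lower in number 2 than in number 1. *Angptl4*, a secreted inhibitor of lipoprotein lipase, was at 14.8 to 15.6 TMM CPM in number 2, 38.7 to 43.2 in number 3 and 37.6 to 39.5 in number 1 (log2 fold change against number 1 -1.36, edgeR adjusted p = 1.3e-06). *Acox2*, a peroxisomal acyl-CoA oxidase, was at 6.60 to 8.85, 14.5 to 19.1 and 13.8 to 15.0, and *Pdk4*, a kinase that inhibits pyruvate dehydrogenase, at 15.0 to 19.8, 33.1 to 53.5 and 31.4 to 34.1. Among genes of fatty acid synthesis and desaturation 4 of 16 were higher and 1 was lower. *Scd1*, the stearoyl-CoA desaturase, was at 32.7 to 36.3 TMM CPM in number 2, 1.51 to 2.11 in number 3 and 1.91 to 2.57 in number 1 (log2 fold change 3.92 against number 1 and 4.202 against number 3, edgeR adjusted p = 1.1e-07 and 6.0e-08).

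Of 22 transcriptional regulators 2 were higher and 4 lower in number 2 than in number 1. *Pparg*, a nuclear receptor for fatty acids that drives lipid storage genes in fat cells, was at 53.3 to 56.7 TMM CPM in number 2, 20.5 to 30.0 in number 3 and 20.6 to 22.3 in number 1. *Ppara*, the related receptor that drives fatty acid oxidation genes, was at 16.4 to 19.5, 31.7 to 42.1 and 30.5 to 31.8. *Ppargc1a*, a coactivator of both, was at 14.1 to 18.3, 27.7 to 32.3 and 34.6 to 34.7. *Pparg* and *Ppara* thus differed in opposite directions between number 2 and both other numbers (log2 fold changes 1.37 and -0.81 against number 1, edgeR adjusted p = 5.0e-05 and 0.00060).

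The next 5 genes were named for number 2 against number 3, where each was called higher. *Acot7*, an acyl-CoA thioesterase, was at 175 to 206 TMM CPM in number 2 and 72.6 to 96.9 in number 3 (log2 fold change 1.26, edgeR adjusted p = 6.3e-05), and *Plin4*, a lipid droplet coat protein, at 6.18 to 6.98 and 2.25 to 3.70 (1.07, adjusted p = 0.0017). *Acacb*, the acetyl-CoA carboxylase of mitochondria, was at 15.8 to 18.2 in number 2 and 9.47 to 11.7 in number 3, *Agpat4*, a relative of *Agpat2*, at 3.70 to 4.66 and 2.40 to 2.90, and *Apoc2*, the activator of lipoprotein lipase, at 1.123 to 1.344 and 0.705 to 0.793. *Thrsp*, which takes part in fatty acid synthesis, was called higher against number 1, at 1.52 to 2.57 in number 2 and 0.714 to 0.985 in number 1, and its adjusted p against number 3 was 0.051.

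**Figure D5:**
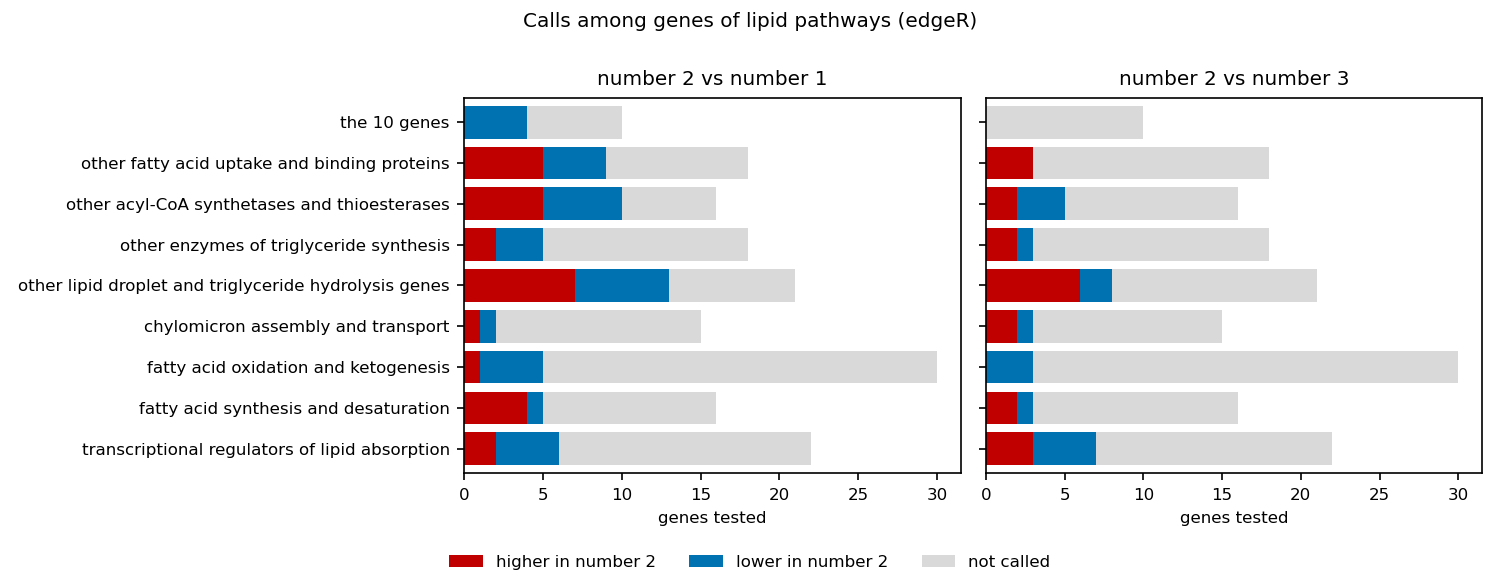
Number of genes called higher (red) or lower (blue) in number 2, or not called (grey), among the 10 genes and in each of the 8 lists, against number 1 (left) and number 3 (right). The 10 genes hold 4 lower calls on the left and 0 on the right, while most lists hold calls in both directions.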

How the data were processed

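RNA of 9 duodenum samples was made into libraries with TruSeq Stranded mRNA and sequenced as single reads of 50 bases. The authors deposited raw counts per Ensembl gene: reads were converted with bcl2fastq 2.17.1.14, aligned to mm10 with Tophat and Bowtie2, kept where uniquely aligned and counted with HTSeq. For the strand setting and annotation release, not given in the sources used here, nothing was assumed. The 9 columns were matched to samples by the digit in the sample description, and groups come from the titles, with 3 mice per treatment by the study's account.

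The tests used edgeR 4.0.16 (R 4.3.3) with TMM scaling and the quasi-likelihood method for genes whose reads summed to over 100, in 1 fit by treatment and 1 by number, with Benjamini-Hochberg adjustment over all genes tested. The threshold follows the study's methods. Standard errors were taken from the fold change and its F statistic. DESeq2 1.42.0 and limma 3.58.1 (voom), other filters and scalings, the replicate block and leaving out each library were alternatives. Levels per length used GENCODE exons, and the scripts were tested on simulated data. The 10 genes and all lists were chosen with earlier results of these data known. Beside the 10, the genes named are, for each list and comparison, the 2 called genes with the largest fold change. *Sis*, *Alpi* and *Adipoq* were chosen after their values were seen. Same-numbered samples deviated together at all 3 numbers only for calcitriol and ZK against vehicle, where the correlations of their deviations were 0.89, 0.92 and 0.84.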

Additional observations from a re-analysis of the deposited data

How the results depend on the processing

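Of the fitted fold changes of the 10 genes under alternative tests, filters and blocks (scaling without TMM and left-out libraries apart), 588 kept their direction and side of the threshold, 12 passed it and 0 reversed. Without TMM, levels shifted by -0.15 to 0.19 on the log2 scale and the median of all genes was at 0.22 for number 2 against 1 and 0.24 for number 3 against 1. *Mogat2* was then at 0.02 for number 2 against 1, and *Dgat2* and *Plin2* at 0.07 and 0.16 for number 3 against 1, all below that median. For calcitriol against vehicle *Dgat2* and *Plin2* turned to -2e-04 and -0.0536, and for calcitriol and ZK against calcitriol to 0.0032 and 0.0057. Without a minimum fold change 5751 genes were called for number 2 against 1 and 3475 for number 2 against 3, with 2 of the 10 in the second, since the call is then wider. For number 2 against 3, 1 of the 10 was called with DESeq2, 1 with limma voom and 1 without the read filter. The 10 alternatives called 1394 to 3475 of all genes in that comparison, against 1702 (11.3%) in the main fit. For number 3 against 1, DESeq2 called 398 genes and edgeR without the read filter 467, with 1 of the 10 among the 467. The cause was not tested.

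With the replicate block, edgeR called 0 genes in each treatment comparison, 2996 for number 2 against 1, 1700 for number 2 against 3 (2 of the 10, *Slc27a4* at -0.60 and *Agpat2* at 0.60) and 0 for number 3 against 1. DESeq2 with the replicate block, added after seeing the data, called 9 genes for calcitriol against vehicle and 10 for calcitriol and ZK against calcitriol. It called 403 for number 3 against 1 (1 of the 10) and 1664 for number 2 against 3 (2 of the 10). In the comparisons with calcitriol, same-numbered samples deviated together for numbers 1 and 2 (0.72 to 0.80) and not for number 3 (-0.03 and -0.01).

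Leaving out 1 library at a time gave 2368 to 3441 genes for number 2 against 1 (3 to 4 of the 10), 1258 to 2320 for number 2 against 3 (0 to 3) and 0 to 2850 for number 3 against 1 (0 to 6). Log2 fold changes turned sign for calcitriol and ZK against vehicle in *Cd36* (-0.86 to 0.52), *Slc27a4* (-0.44 to 0.32), *Fabp1* (-0.31 to 0.38), *Fabp2* (-0.12 to 0.22), *Acsl5* (-0.19 to 0.14), *Mogat2* (-0.22 to 0.18), *Dgat1* (-0.32 to 0.34), *Dgat2* (-0.20 to 0.21) and *Agpat2* (-0.21 to 0.23). They also did so for calcitriol against vehicle in *Agpat2* (-0.0707 to 0.36), *Dgat2* (-0.058 to 0.29) and *Plin2* (-0.0102 to 0.0871), and for calcitriol and ZK against calcitriol in *Agpat2* (-0.35 to 0.0725) and *Dgat2* (-0.28 to 0.0735). For number 2 against 3 this held for *Acsl5* (-0.013 to 0.22), *Cd36* (-0.77 to 0.0015) and *Fabp2* (-0.0646 to 0.22), and for number 2 against 1 for *Plin2* (-0.0033 to 0.0502). Each of the 10 genes had at least 1107 reads in every library, and the effect of depth or group size on the calls was not tested.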
